A study of Homo sapiens with 28 samples.

Results

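The expression of 10 genes of the myeloid lineage was followed in SEM cells, human B-lineage acute lymphoblastic leukemia cells with an MLL-AF4 fusion. The genes were chosen by name among the 57820 genes of the count data: the transcription factor genes SPI1, CEBPA and NFE2, the granule protein genes LYZ and MPO, the surface protein genes CD33, CSF3R, ITGAM and ITGAX, and FUT4, whose product makes the CD15 sugar epitope. All 10 had an entry in the data of all 28 libraries, with or without counts. Of these libraries, 12 covered 24 h: CTCF-AID2 cells without auxin (n = 4) and with 1 µM 5-Ph-IAA (n = 4), and SEM cells labelled WT without auxin (n = 2) and with IAA (n = 2). In CTCF-AID2 cells the endogenous CTCF protein carries a degron and OsTIR1(F74G) is expressed constitutively, so that 5-Ph-IAA should remove CTCF, whose protein was not measured here. The dose in the sample titles and that in the study's methods differ. The methods give the WT cells doxycycline together with IAA, which the labels do not name.

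The other 16 libraries covered 6 h in 4 lines labelled WT, DeltaZ1, DeltaZ10 and DeltaRBR, each without auxin (n = 2) and with IAA (n = 2). Per the methods these are all degron cells with an added, doxycycline-inducible CTCF, which is full-length in the WT line and lacks the first zinc finger in DeltaZ1, the tenth in DeltaZ10 and a region that binds RNA in DeltaRBR. The WT line at 6 h is thus a different line from the WT cells at 24 h. The labels name IAA as the agent and give no dose, whereas the methods describe 5-Ph-IAA for these lines. Doxycycline is absent from the labels, so it is not known from them which libraries held the added CTCF. Nothing in the labels says that libraries of 1 group were grown as separate cultures, and p-values then measure only the spread between libraries, which may be technical. Total counts were 45.7 to 59.78 M per library at 24 h and 25.83 to 60.73 M at 6 h. CTCF mRNA, which does not report on the degraded protein, was 249 to 255 CPM with 5-Ph-IAA and 143 to 151 CPM without in CTCF-AID2 cells.

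Myeloid and B cells arise from common progenitors, and their fates are set by competing transcription factors. PU.1, the product of SPI1, serves both lineages at different doses, whereas C/EBPα, the product of CEBPA, drives granulocyte development and can turn B cells into macrophages when it is forced on. Leukemias with MLL fusions are known for lineage infidelity, in which B-lineage blasts express myeloid antigens such as CD15 and CD33. CTCF binds DNA through its zinc fingers and anchors chromatin loops together with cohesin.

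The upstream sequence of ITGAM, which rose in the degron cells at both times, is shown with those of CEBPA and CD33, which fell at 24 h. RefSeq promoters (GRCh38.p14 table) were at hand for 5 of the 10 genes. The 250 bases before each start were placed on GRCh37 by exact match, at chr16:31271046-31271295 on the plus strand for ITGAM, chr19:33793441-33793690 on the minus strand for CEBPA and chr19:51728086-51728335 on the plus strand for CD33. They are written 5′ to 3′ along the gene, and capitals mark matches, on either strand, to AGNGGGC (the core letters of the CTCF motif), GAGGAAG (PU.1 and other ETS factors) or TTGCNNAA (C/EBP factors).
ITGAM: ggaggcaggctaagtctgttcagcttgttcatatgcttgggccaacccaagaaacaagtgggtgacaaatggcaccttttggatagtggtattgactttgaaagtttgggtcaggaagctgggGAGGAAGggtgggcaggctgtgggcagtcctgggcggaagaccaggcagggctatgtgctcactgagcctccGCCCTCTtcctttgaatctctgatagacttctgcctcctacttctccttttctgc
CEBPA: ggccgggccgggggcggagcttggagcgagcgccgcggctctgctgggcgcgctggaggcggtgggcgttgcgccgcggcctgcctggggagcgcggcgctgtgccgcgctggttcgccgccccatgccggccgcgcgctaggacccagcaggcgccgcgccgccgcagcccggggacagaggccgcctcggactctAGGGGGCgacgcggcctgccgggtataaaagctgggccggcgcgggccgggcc
CD33: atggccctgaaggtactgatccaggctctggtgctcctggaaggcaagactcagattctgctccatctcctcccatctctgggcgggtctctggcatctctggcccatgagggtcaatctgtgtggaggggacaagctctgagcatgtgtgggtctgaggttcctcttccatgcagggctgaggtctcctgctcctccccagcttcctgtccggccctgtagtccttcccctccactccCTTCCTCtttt

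The last bases of the ITGAM and CD33 windows lie inside the genes as Gencode places them on GRCh37. Distances below are to the RefSeq start, and the CD33 match falls among these last bases. The ITGAM window held GAGGAAG on the gene's strand at 127 bases before the start and AGNGGGC on the other strand at 55 bases before it. The CEBPA window held AGNGGGC at 53 bases before the start, and the CD33 window held GAGGAAG on the other strand at 11 bases before it. No matches overlapped, and TTGCNNAA was in none of the 3 windows. The window of FUT4, which also fell at 24 h, is not shown and held no match to any of these motifs. Windows of CSF3R, also not shown, held TTGCNNAA at 206 bases before a start and GAGGAAG at 111 bases before another. Among 34788 RefSeq windows of this length, 27.1% held AGNGGGC, 11.3% GAGGAAG and 9.05% TTGCNNAA, so the matches are common and are given as a description only.

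B-lineage identity was checked first. PAX5, the factor that commits cells to the B lineage, lay between 18.5 and 54.4 TPM (a share of transcripts corrected for their length) over the 28 libraries. MME, which encodes CD10, and MS4A1, which encodes CD20, stayed at or below 0.05 and 0.15 TPM. Among untreated libraries of the 6 h set, SPI1 had the highest median level (7.62 TPM, range 6.33 to 10.0, n = 8). It was followed by CEBPA (6.64, 4.02 to 8.11), FUT4 (5.38, 4.69 to 5.71) and LYZ (3.37, 2.68 to 5.6), and the range of each overlapped that of its neighbour. CD33 (1.09 TPM, 0.83 to 1.54) and NFE2 (1.02, 0.83 to 1.45) overlapped each other but not LYZ. ITGAM (0.415, 0.28 to 0.54) and ITGAX (0.24, 0.13 to 0.35) came last of the genes above the filter, which kept genes over 1 CPM (the count scaled to the library's total) in at least 1 library of a set. MPO (median 0.05 TPM) and CSF3R (at most 0.01 TPM) lay below it.

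In untreated CTCF-AID2 cells of the 24 h set CEBPA led instead, at a median of 17.4 TPM (14.5 to 20.2, n = 4), above LYZ (6.41, 5.18 to 6.75) and SPI1 (6.1, 5.33 to 6.39), whose ranges overlapped. The order below them was FUT4, CD33, NFE2, ITGAM and ITGAX, as in the 6 h set.

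Libraries were also compared by a GC index, the median log2 deviation of the 10% of tested genes richest in GC from their mean over the set. It was -0.41 in DeltaZ1 with IAA replicate 2, against -0.07 to 0.13 in the other 15 libraries of the 6 h set. In the 24 h set it was -0.38 to -0.18 in WT cells and 0.12 to 0.23 in CTCF-AID2 cells. CEBPA (65.9% GC) and SPI1 (65.2% GC) lie above the 97th percentile of genes in GC content. Results that moved with this index are therefore given with and without it as a covariate, and its part in them was not tested further. CPM below were normalized within each set.

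The first comparison asked how the myeloid genes responded when CTCF-AID2 cells were held in 5-Ph-IAA for 24 h. All 8 genes above the filter passed the test (limma adjusted p of at most 0.05): 2 rose and 6 fell. Over all 13973 genes tested, 29.2% passed as higher and 29.5% as lower, so passing was common in this comparison. By CPM, the 4 treated libraries lay above all 4 untreated ones for ITGAM and ITGAX and below them for the other 6 genes. Over all genes tested, 26.0% were higher and 26.6% lower without overlap. By TPM, the groups overlapped for SPI1 (5.33 to 6.39 without and 5.08 to 6.22 with 5-Ph-IAA) and CD33 (1.23 to 1.49 and 1.01 to 1.41). They also overlapped for FUT4 (3.96 to 4.97 and 3.81 to 4.69).

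**Figure D1:**
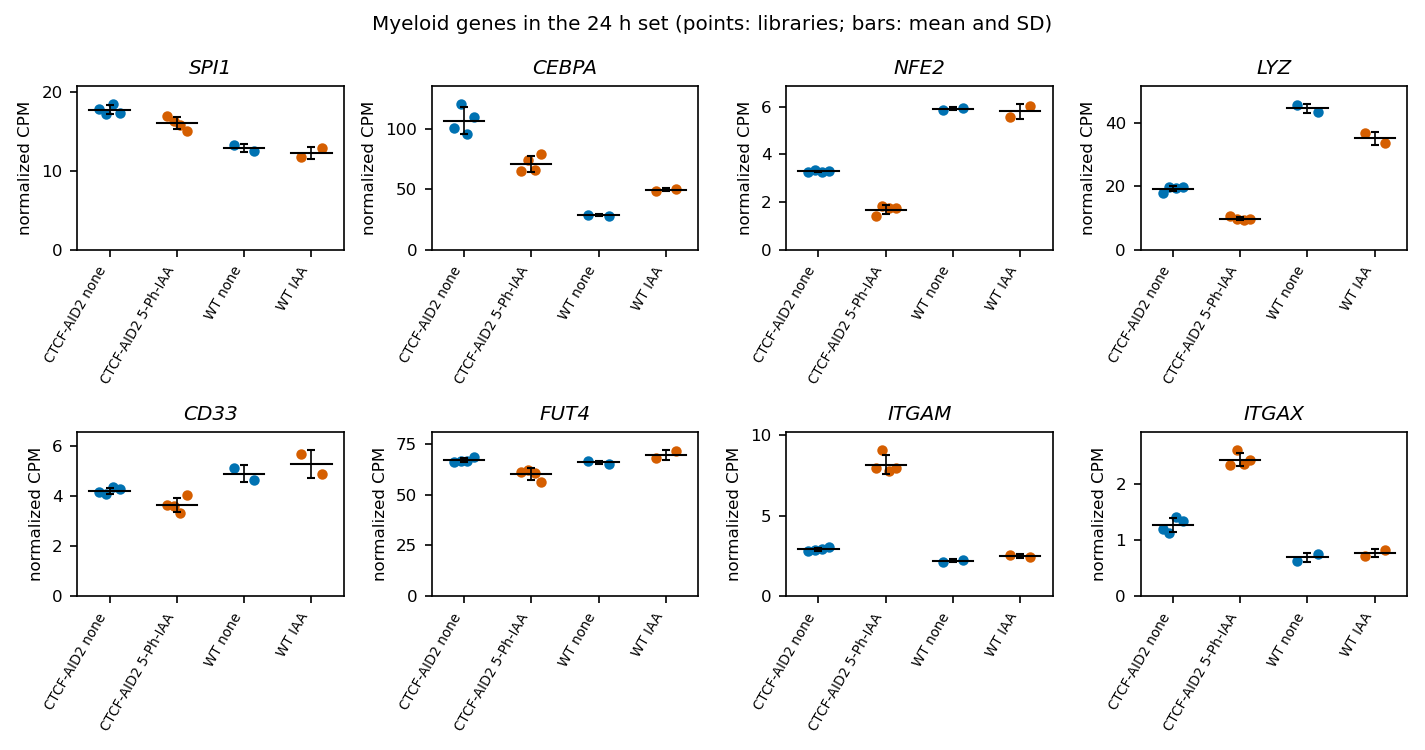
Normalized CPM (y axis, from 0) of the 8 myeloid genes above the filter in the 12 libraries of the 24 h set, by group (x axis). Points are libraries and bars are the mean and SD. ITGAM and ITGAX were higher and the other 6 genes lower in every CTCF-AID2 library with 5-Ph-IAA than in every one without.

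ITGAM (16: 31271288-31344213) encodes CD11b, the alpha chain of the complement receptor integrin of monocytes and neutrophils. It measured 2.82, 2.84, 2.91 and 3.03 CPM without auxin and 7.94, 9.09, 7.76 and 7.95 CPM with 5-Ph-IAA. The treated libraries were all well above the untreated ones, and the gene rose by 1.49 ± 0.07 on the log2 scale (SE, limma adjusted p = 8.58e-10). In WT cells it was 2.14 and 2.27 CPM without and 2.58 and 2.41 CPM with IAA, a difference of 0.18 ± 0.14 (log2, SE) that did not pass (limma adjusted p = 0.42). Its TPM in WT cells went the other way, at 0.38 and 0.36 without and 0.23 and 0.24 with IAA. The effect in CTCF-AID2 cells exceeded that in WT cells by 1.31 ± 0.16 on the log2 scale (SE, limma adjusted p = 2.28e-05).

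ITGAX (16: 31366455-31394320) encodes CD11c, the integrin alpha chain of dendritic cells and macrophages, and starts 95.2 kb downstream of ITGAM. It was near the filter, at 1.20, 1.13, 1.41 and 1.35 CPM without auxin and 2.34, 2.61, 2.37 and 2.42 CPM with 5-Ph-IAA. Every treated library was higher, and the log2 fold change was 0.94 ± 0.10 (SE, limma adjusted p = 2.49e-06). In WT cells ITGAX was 0.632 to 0.749 CPM without and 0.717 to 0.823 CPM with IAA, so it was tested only through CTCF-AID2 libraries. The rise exceeded the effect in WT cells by 0.77 ± 0.23 (SE, limma adjusted p = 0.0173), which did not pass without a filter (0.78, limma adjusted p = 0.0554). That difference did not pass without WT replicate 2 (0.65, limma adjusted p = 0.0961) or without WT with IAA replicate 1 (0.68, limma adjusted p = 0.0697). Both chains pair with the beta chain encoded by ITGB2, which was present at 5.84 to 11.6 TPM over all libraries.

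LYZ (12: 69742161-69748014) encodes lysozyme, a bactericidal enzyme of phagocytes. Its level was 17.9, 19.7, 19.3 and 19.8 CPM without auxin and 10.4, 9.49, 9.40 and 9.74 CPM with 5-Ph-IAA in CTCF-AID2 cells. The 2 groups were far apart, and the gene fell by 0.97 ± 0.05 on the log2 scale (SE, limma adjusted p = 2.55e-09). In WT cells LYZ was higher throughout, at 45.6 and 43.5 CPM without and 36.6 and 33.6 CPM with IAA. It fell there too, by 0.35 ± 0.06 (SE, limma adjusted p = 0.000882), and the fall in CTCF-AID2 cells was larger by a log2 difference of -0.63 ± 0.08 (SE, limma adjusted p = 2.61e-05).

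NFE2 (12: 54685895-54694799) encodes a subunit of the NF-E2 factor of erythroid and megakaryocytic cells, which neutrophils also express. It was 3.25, 3.32, 3.26 and 3.28 CPM without auxin and 1.42, 1.81, 1.75 and 1.74 CPM with 5-Ph-IAA. The untreated libraries lay close together and above all treated ones (log2 fold change -0.97 ± 0.09 SE, limma adjusted p = 5.19e-07). WT cells held 5.87 and 5.95 CPM without and 5.56 and 6.03 CPM with IAA, and their change of -0.03 ± 0.09 did not pass (limma adjusted p = 0.88). The effects of the 2 lines differed by -0.94 on the log2 scale (limma adjusted p = 4.59e-05).

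CEBPA (19: 33790840-33793440) moved in opposite directions in the 2 lines. In CTCF-AID2 cells it was 101, 121, 96.3 and 110 CPM without auxin and 65.4, 74.5, 66.0 and 79.2 CPM with 5-Ph-IAA, so that it fell by 0.59 ± 0.07 on the log2 scale (SE, limma adjusted p = 5.5e-06). In WT cells it rose from 29.0 and 27.9 CPM to 48.9 and 50.7 CPM with IAA (0.81 ± 0.12 SE, limma adjusted p = 0.000324). The difference of the effects was -1.40 ± 0.14 (SE, limma adjusted p = 2.51e-06). Reads of CEBPA cannot be fully told apart from those of antisense genes that overlap it, because it is not stated whether counting used strand. CEBPA-AS1, which starts 0.3 kb away, also fell in CTCF-AID2 cells (-0.58, limma adjusted p = 2.98e-06) and at 6 h (-0.70, limma adjusted p = 1.91e-05).

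The remaining 3 genes moved little. SPI1 was 17.3 to 18.5 CPM without and 15.1 to 16.9 CPM with 5-Ph-IAA (-0.14 ± 0.05 SE, limma adjusted p = 0.016). CD33, the sialic acid-binding receptor of early myeloid cells, was 4.06 to 4.34 and 3.33 to 4.02 CPM (-0.21 ± 0.08 SE, limma adjusted p = 0.0303). FUT4 was 66.3 to 68.8 and 56.1 to 62.3 CPM (-0.16 ± 0.03 SE, limma adjusted p = 0.00141), but it shares exons with PIWIL4 on the same strand and its counts are uncertain. The call of SPI1 was lost without a filter (limma adjusted p = 0.058) and without CTCF-AID2 untreated replicate 3 (limma adjusted p = 0.051). That of CD33 was lost with DESeq2 (adjusted p = 0.0699), with library sizes alone (limma adjusted p = 0.056), without a filter (limma adjusted p = 0.0883) and without 5-Ph-IAA replicate 2 or 3 or untreated replicate 3 (limma adjusted p of up to 0.0974).

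In WT cells only CEBPA and LYZ passed of the 8 genes, against 18.9% of all genes tested. The effects of the 2 lines differed for 6 of the 8 genes, against 40.2% of all genes, and FUT4 (-0.24, limma adjusted p = 0.00644) was the sixth beside those named above. ITGAX, among these 6, was tested only through CTCF-AID2 libraries. CD33 (-0.32, limma adjusted p = 0.0682) and SPI1 (-0.07, limma adjusted p = 0.558) did not pass. WT cells received another auxin than CTCF-AID2 cells, and per the methods at a higher dose and together with doxycycline. Line, agent, dose and doxycycline therefore cannot be told apart in these differences.

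Without auxin, CTCF-AID2 and WT cells differed in 7 of the 8 genes, against 70.6% of all genes tested. ITGAX, among the 7, was tested only because it was high in CTCF-AID2 libraries. It was 0.632 to 0.749 CPM in untreated WT cells and passed the filter in no WT library. CD33, also among the 7, did not pass with edgeR (-0.22, edgeR adjusted p = 0.0524) or DESeq2 (-0.23, DESeq2 adjusted p = 0.0849). CEBPA was higher in CTCF-AID2 cells by 1.91 ± 0.10 (log2, SE, limma adjusted p = 1.33e-09) and LYZ lower by 1.22 (log2 difference -1.22 ± 0.05 SE, limma adjusted p = 1.47e-10). The WT libraries also differed in the GC index and held non-whole counts in at most 2.82% of genes, against at least 7.08% in CTCF-AID2 libraries, so line and processing cannot be told apart. With the GC index as a covariate 2 of the 8 genes passed, LYZ and NFE2, and CEBPA did not (1.27, limma adjusted p = 0.0585).

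The second comparison asked what had changed after 6 h of auxin, as the mean effect over the 4 degron lines. LYZ, NFE2, ITGAX, CD33, SPI1 and FUT4 fell, ITGAM rose and CEBPA did not pass. That made 1 gene higher and 6 lower of 8 tested, with ITGAX tested only because it was high without auxin, where 25.1% of all 13902 genes tested passed as higher and 26.4% as lower. For these 7 genes all 8 treated libraries lay on 1 side of all 8 untreated ones by CPM. Over all genes, 9.81% were higher and 8.83% lower without overlap. By TPM, the groups overlapped for ITGAM, ITGAX, CD33, SPI1 and FUT4.

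**Figure D2:**
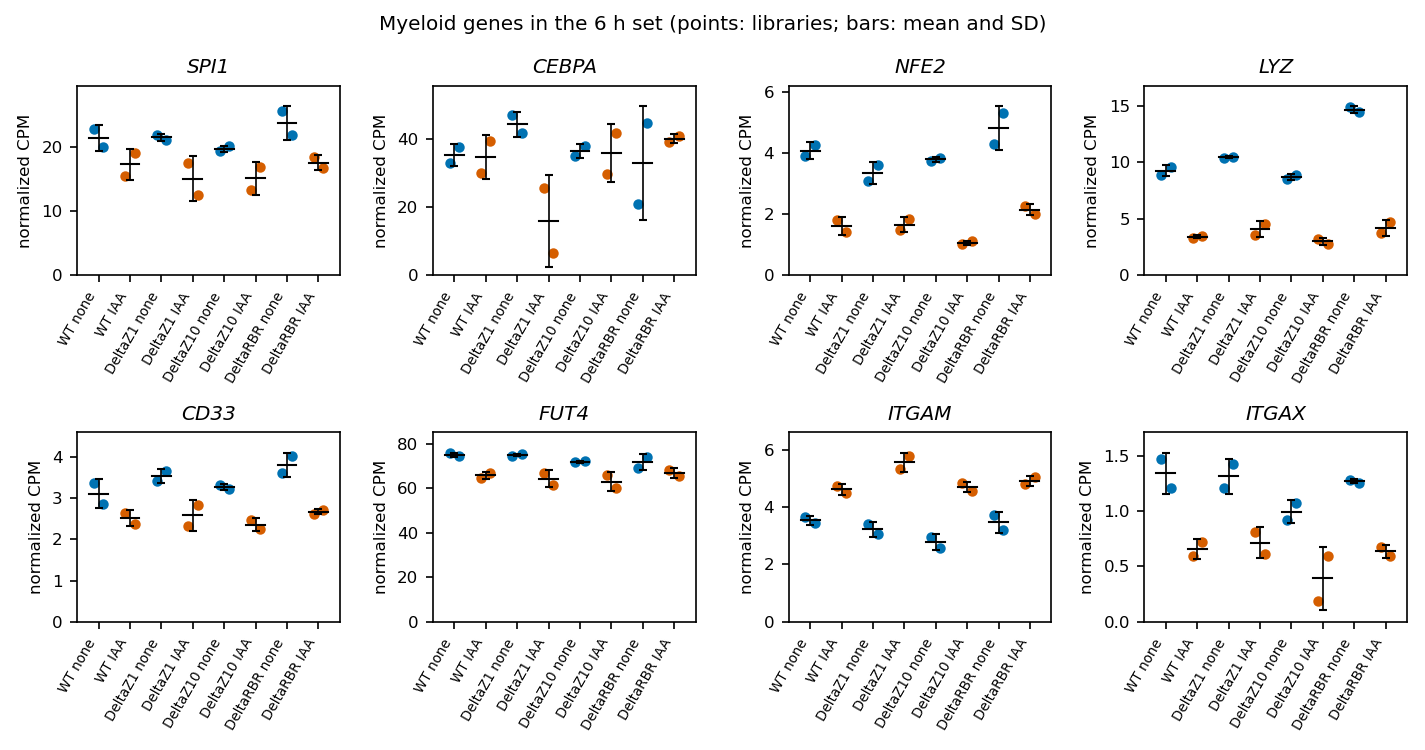
Normalized CPM (y axis, from 0) of the 8 myeloid genes above the filter in the 16 libraries of the 6 h set, by line and treatment (x axis). Points are libraries and bars are the mean and SD of 2 libraries. LYZ and NFE2 were lower with IAA in all 4 lines, and CEBPA in DeltaZ1 with IAA replicate 2 was the lowest of all, at 6.47 CPM.

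LYZ ran from 8.51 to 14.9 CPM (median 10.0, n = 8) without auxin and from 2.80 to 4.70 CPM (median 3.54, n = 8) with it. Its change of -1.54 ± 0.07 in log2 units (SE, limma adjusted p = 1.7e-08) had the smallest adjusted p of the 8 genes, and it passed in each line: -1.44 in WT, -1.35 in DeltaZ1, -1.55 in DeltaZ10 and -1.81 in DeltaRBR (limma adjusted p of at most 0.000122). The untreated DeltaRBR libraries held the most, 14.9 and 14.4 CPM. NFE2 ran from 3.09 to 5.32 CPM (median 3.87) without and from 1.01 to 2.28 CPM (median 1.65) with auxin (-1.35 ± 0.09 SE, limma adjusted p = 4.23e-07). It also passed in each line, with log2 fold changes of -1.38, -1.0, -1.82 and -1.19 in the same order (limma adjusted p of at most 0.00189). With only the groups compared in the fit, neither gene passed in DeltaZ1 (limma adjusted p of 0.0968 for LYZ and 0.137 for NFE2).

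ITGAM was 2.58 to 3.73 CPM (median 3.31) without and 4.48 to 5.79 CPM (median 4.81) with auxin, a rise of 0.62 ± 0.06 on the log2 scale (SE, limma adjusted p = 9.07e-06). By line it passed in DeltaZ1 (0.79), DeltaZ10 (0.78) and DeltaRBR (0.53), with limma adjusted p of 0.000728, 0.00135 and 0.0183. The call in DeltaRBR was lost without a filter (limma adjusted p = 0.0577) and without IAA replicate 1 (0.57, limma adjusted p = 0.0686), IAA replicate 2 (0.50, limma adjusted p = 0.105) or untreated replicate 2 (0.39, limma adjusted p = 0.195). In the WT line the value of 0.37 did not pass (limma adjusted p = 0.0816). ITGAX was 0.92 to 1.47 CPM (median 1.23) without and 0.191 to 0.813 CPM (median 0.606) with auxin, a fall of 1.08 (log2 fold change -1.08 ± 0.17 SE, limma adjusted p = 0.000235). It passed the filter only through 7 untreated libraries, which favours a fall, and summed to 381 counts without and 207 counts with auxin. Fitted without the filter, ITGAX was at -1.05 (limma adjusted p = 0.000383) and ITGAM at 0.64 (limma adjusted p = 1.81e-05).

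CD33 was 2.86 to 4.02 CPM without and 2.25 to 2.85 CPM with auxin (-0.44 ± 0.07 SE, limma adjusted p = 0.000301), and FUT4 was 69.1 to 75.6 and 59.9 to 68.3 CPM (-0.18 ± 0.03 SE, limma adjusted p = 0.000998). SPI1 was 19.4 to 25.6 CPM without and 12.5 to 19 CPM with auxin (-0.41 ± 0.08 SE, limma adjusted p = 0.00108). Of these, SPI1 moved with the GC index, and its value was -0.22 with the index as a covariate (limma adjusted p = 0.0224). Untreated libraries had index values of 0.00 to 0.13 and treated ones, other than DeltaZ1 replicate 2, of -0.07 to 0.05. CEBPA was 21.0 to 47.1 CPM without and 6.47 to 41.9 CPM with auxin. The groups overlapped, and its mean effect of -0.39 ± 0.22 did not pass (SE, limma adjusted p = 0.146). It was -0.14 without DeltaZ1 with IAA replicate 2 (limma adjusted p = 0.41), and -0.63 without replicate 1 of that group, where it passed (limma adjusted p = 0.00375).

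By line, 2 of the 8 genes passed in WT (13.7% of all genes), 8 in DeltaZ1 (33.6%), 5 in DeltaZ10 (18.1%) and 4 in DeltaRBR (10.5%). These counts moved with single libraries. Without DeltaZ1 with IAA replicate 2, 4 genes passed in DeltaZ1 (LYZ, NFE2, ITGAM and CD33), and the same 4 passed with the GC index as a covariate. Without untreated DeltaZ1 replicate 1 or 2, 3 and 4 passed. In DeltaZ10, 3 passed without IAA replicate 1 or untreated replicate 2, in DeltaRBR 2 passed without IAA replicate 1, IAA replicate 2 or untreated replicate 2, and in the WT line 4 passed without either DeltaZ1 library with IAA. LYZ, NFE2 and ITGAM passed in all 4 of these fits of DeltaZ1. With only the DeltaZ1 groups fitted, LYZ (limma adjusted p = 0.0968), NFE2 and ITGAM (limma adjusted p = 0.137 each) did not pass. By edgeR 7 genes passed in DeltaZ1, and by DESeq2 6 in DeltaZ1, 4 in DeltaZ10 and 3 in DeltaRBR. ITGAX in DeltaZ1 was lost with both (edgeR adjusted p = 0.0618, DESeq2 adjusted p = 0.09305). CD33 was lost in DeltaZ10 and DeltaRBR with DESeq2 (adjusted p of 0.107 and 0.0947) and without a filter (limma adjusted p of 0.1229 and 0.1265). CEBPA in DeltaZ1 was 47.1 and 41.8 CPM without and 25.6 and 6.47 CPM with IAA (-1.84 ± 0.46 SE, limma adjusted p = 0.0107). Without that library it was -0.79 (limma adjusted p = 0.102), and with the covariate -0.64 (limma adjusted p = 0.443).

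No gene of the 8 passed in the tests of whether a deletion line responded differently from the WT line, where 0.331% (DeltaZ1), 0.0432% (DeltaZ10) and 0.0% (DeltaRBR) of all genes did. At an unadjusted limma p under 0.05 there were 2 (ITGAM and CEBPA), 1 (ITGAM) and 0 genes, and neither edgeR nor DESeq2 passed any. The ITGAM effect was larger than in the WT line by 0.41 ± 0.18 in DeltaZ1 and 0.40 ± 0.18 in DeltaZ10 (log2, SE, limma adjusted p of 0.267 and 1.0). No gene passed either in the comparisons of each deletion line with the WT line over both treatments, where 0.0935%, 0.0575% and 0.0% of all genes did. There 1 (LYZ), 2 (NFE2 and ITGAX) and 2 (LYZ and NFE2) genes had an unadjusted limma p under 0.05, edgeR passed none, and DESeq2 passed LYZ in DeltaRBR (0.48, adjusted p = 0.0284). With 2 libraries a group, a p that misses the threshold does not show that the lines act alike.

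The effects at 24 h and 6 h were then compared in 1 fit of all 28 libraries, a test added after the values had been seen. The sets differ in line and, by the labels, in agent as well as in time, which cannot be told apart. ITGAX, which fell at 6 h and rose at 24 h, differed by 2.02 ± 0.19 on the log2 scale (SE, limma adjusted p = 3.09e-08), and by 1.98 without the filter (limma adjusted p = 8.77e-08). ITGAM rose in both sets and more at 24 h (0.88 ± 0.09 SE, limma adjusted p = 1.18e-07). LYZ (0.57, limma adjusted p = 1.31e-05) and NFE2 (0.39, limma adjusted p = 0.0153) fell in both and less at 24 h. The NFE2 difference did not pass with the GC index as a covariate (0.38, limma adjusted p = 0.0529) or without a filter (0.34, limma adjusted p = 0.0736). SPI1 also passed (0.27, limma adjusted p = 0.0357) but did not with the GC index as a covariate (0.09, limma adjusted p = 0.456), and CEBPA passed only without DeltaZ1 with IAA replicate 2 (-0.44, limma adjusted p = 0.034). In the full fit 5 of 8 genes passed, against 47.7% of all genes.

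**Figure D3:**
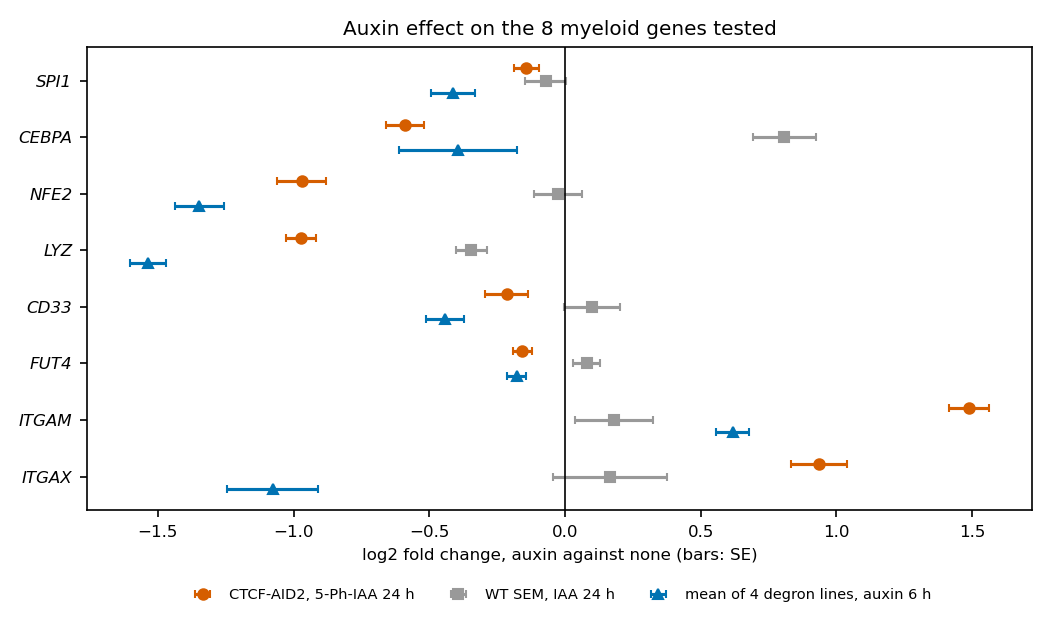
Log2 fold change of auxin against none (x axis) with its SE for the 8 myeloid genes tested (y axis). Circles are CTCF-AID2 cells at 24 h, squares WT cells at 24 h and triangles the mean of the 4 degron lines at 6 h. ITGAX lay at -1.08 at 6 h and at 0.94 at 24 h in degron cells, while LYZ and NFE2 lay below 0 at both times.

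MPO and CSF3R, below the filter, are given by counts. MPO (17: 56347216-56358296) encodes myeloperoxidase, the defining enzyme of myeloid granules. Untreated libraries of the 6 h set held 59 MPO counts in all and treated ones 6, a ratio per total count of 0.0932 (95% counting interval 0.0329 to 0.215). The untreated WT line held 6 of the 59 counts and the other 3 lines 17 or 18 each. At 24 h CTCF-AID2 libraries held 14, 6, 7 and 17 counts without and 4, 2, 2 and 5 with 5-Ph-IAA, a ratio of 0.287 (95% counting interval 0.142 to 0.543). WT cells held 16 counts without and 19 with IAA (ratio 1.27, interval 0.618 to 2.64). Fitted without the filter, MPO passed at both times (-2.89 at 6 h, limma adjusted p = 0.000243, and -1.67 at 24 h, limma adjusted p = 0.0148). CSF3R (1: 36931644-36948879), the receptor for granulocyte colony-stimulating factor, had 4 counts in the untreated 6 h libraries, 2 in untreated CTCF-AID2 cells and 0 in every other library. A count of 0 allows up to 0.00877 CPM over the 8 treated 6 h libraries and 0.0134 CPM over the 4 treated CTCF-AID2 libraries. These intervals and limits cover counting error only.

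Other myeloid genes were read from lists chosen by function. Their counts stand against the 29.2% of all genes that passed as higher and 29.5% as lower at 24 h in CTCF-AID2 cells, and 25.1% and 26.4% at 6 h. Of 8 further myeloid transcription factor genes, 5 were tested at 24 h in CTCF-AID2 cells. CEBPE, a factor of late granulocyte maturation, rose (0.77, limma adjusted p = 0.0236) and IRF8, a factor of monocytes, dendritic cells and B cells, fell (-0.30, limma adjusted p = 1.29e-07), as did KLF4 (-0.93, limma adjusted p = 0.0288). CEBPE reached at most 1.1 CPM and KLF4 at most 1.62 CPM in any library, so both were near the filter. Both were tested at 24 h only because they were high in some libraries. At 6 h 1 of 4 tested passed, IRF8 (-0.40, limma adjusted p = 3.75e-06). The medians were 0.01 and -0.23, against 0.00 and -0.01 over all genes tested. Granule protein genes were nearly silent: 12 of 13 stayed under 1 CPM in every library, S100A8, S100A12 and DEFA4 had no count, and CTSG, which encodes cathepsin G, passed at neither time in degron cells (-0.16 and 0.06).

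Of 17 myeloid receptor and surface protein genes, 8 were tested at 24 h, where 4 rose and 1 fell (median 0.14), and 7 at 6 h, where 2 rose and 4 fell (median -0.14). CSF2RB, the common beta chain of the GM-CSF receptor, fell at both times (-0.34 and -0.24, limma adjusted p of 1.39e-05 and 0.000308). CSF1R, the M-CSF receptor, fell at 6 h (-0.79, limma adjusted p = 2.75e-05), and CD68, a lysosomal protein of macrophages, rose at 24 h (0.78, limma adjusted p = 0.000522). Of 14 genes for the phagocyte oxidase and effector proteins, 9 were tested. There 5 rose and 1 fell at 24 h (median 0.15), and 2 rose and 2 fell at 6 h (median 0.11). FES, a tyrosine kinase, rose at 24 h (0.32, limma adjusted p = 6.51e-06), and VCAN, a proteoglycan of monocytes, fell at 6 h (-1.19, limma adjusted p = 1.56e-07).

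B-lineage genes moved in the same libraries. At 24 h in CTCF-AID2 cells 10 of 17 tested rose and 2 fell (median 0.14), where 29.2% and 29.5% of all genes did. At 6 h 1 of 18 rose and 12 fell (median -0.30), where 25.1% and 26.4% of all genes did. CD79A, a signalling chain of the B-cell receptor, rose at 24 h (0.69, limma adjusted p = 5.56e-09) together with IKZF1 (0.54, limma adjusted p = 3.14e-10) and VPREB3 (0.84, limma adjusted p = 4.15e-09). IGLL1, a surrogate light chain, fell at 6 h (-1.31, limma adjusted p = 1.08e-08), as did CD22 (-0.68, limma adjusted p = 2.74e-07). The 12 that fell include DNTT, which reached at most 1.09 CPM in any library and was tested only because it was high in some. In bulk RNA, fewer cells of a type and less RNA per cell cannot be told apart. Other lineages were at or near 0 by their defining markers. CD3D, HBA1, HBA2, GATA1, PF4, PPBP and TPSAB1 had no count in any library, and all 11 erythroid and all 6 mast cell and basophil markers stayed under 1 CPM. Of 11 T and NK cell markers 9 stayed under 1 CPM, while TRAC (27.4 to 57.2 CPM) and NKG7 (13.8 to 27.6 CPM) were detected. Of 6 megakaryocyte markers 5 and of 5 stromal markers 3 did so, with GP9 at up to 5.3 CPM and PDGFRB at up to 103 CPM. Of these detected markers, TRAC (0.32), NKG7 (0.14) and GP9 (0.43) rose at 24 h in CTCF-AID2 cells, and GP9 (-0.31) and PDGFRB (-0.26) fell at 6 h. Their part in the results was not tested.

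The surroundings of the myeloid genes were examined at 24 h in CTCF-AID2 cells, as tested genes that start within 250 kb. Of 17 such neighbours of ITGAM, 9 rose and 2 fell, where 29.2% and 29.5% of all genes did. Besides ITGAX these included RP11-452L6.5 (0.90, limma adjusted p = 1.81e-08), TGFB1I1 (0.89, limma adjusted p = 5.19e-05) and C16orf98 (0.79, limma adjusted p = 6.86e-05), whereas KAT8 did not pass (-0.03, limma adjusted p = 0.447). Of 9 neighbours of NFE2, 7 rose and 0 fell, while NFE2 itself fell. COPZ1, which starts 0.2 kb from NFE2, was at 0.11 (limma adjusted p = 0.0224). Of 5 neighbours of LYZ, 1 rose and 1 fell, and YEATS4, which starts 11.3 kb away, was at 0.05 (limma adjusted p = 0.336). Of 12 neighbours of SPI1, 3 rose and 4 fell, of 4 of CEBPA 0 rose and 2 fell, and of 6 of FUT4 1 rose and 2 fell. The 12 of ITGAX, 8 of which rose and 1 of which fell, are ITGAM and genes already counted for it. Of 5 neighbours of CD33, 3 rose and 1 fell, and SIGLEC10 was among those that rose (0.94, limma adjusted p = 5.95e-06).

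The genes most like each myeloid gene were found by Pearson's r over the 12 group means of log2 CPM, centred within each set. Group means share libraries and depth, so the values describe and test nothing. LYZ was most like DHRS9 (0.980), ZNF248 (0.976) and NFE2 (0.972), and NFE2 most like GBP4 (0.978), LYZ and ZNF248 (0.964). CD33 was most like LYZ (0.967), DHRS9 (0.960) and ZBTB34 (0.955). ITGAM was most like CD79A (0.987), FGFBP2 (0.983) and GSN (0.980), and its r with LYZ was -0.825. ITGAX was most like MYO18A (0.975), NCF1C (0.972) and RP11-252A24.7 (0.969), and its r with ITGAM was 0.303. SPI1 was most like NAT6 (0.982), GIT1 (0.980) and WASH6P (0.969), CEBPA most like MAEA (0.978) and the small nucleolar RNAs SNORA84 and SNORA71D (0.967 each), and FUT4 most like TBL1X (0.968), RASA4CP (0.956) and CTC-297N7.8 (0.953).

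**Figure D4:**
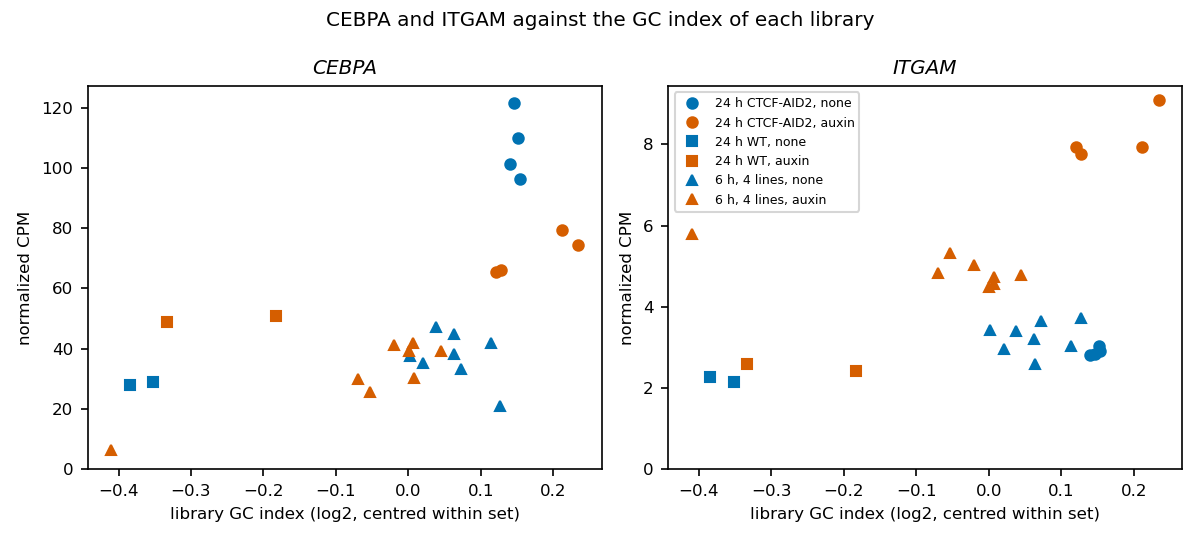
Normalized CPM of CEBPA (left) and ITGAM (right) against the GC index of each library (x axis, log2, centred within each set). Each point is 1 of 28 libraries, blue without and orange with auxin, with the shape giving the set and line. DeltaZ1 with IAA replicate 2 lies at an index of -0.41 with CEBPA at 6.47 CPM. CTCF-AID2 libraries lie at index values of 0.14 to 0.15 without and 0.12 to 0.23 with 5-Ph-IAA, with higher ITGAM in the treated ones.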

How the data were processed

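RNA-seq of 28 SEM libraries was analyzed from deposited values. According to labels and methods, Trim Galore was used for trimming, STAR 2.7.9a for mapping to hg19 and RSEM 1.3.1 to quantify Gencode genes. The authors deposited unscaled expected counts and TPM, which the authors' quantification scales by effective length. The labels name a 3′ kit whereas the methods describe stranded total RNA after ribosomal RNA depletion, and strand use in counting is not given in the sources used here. Matrices that hold the 6 h set again were not used. Gene positions, overlaps and neighbours came from a later Gencode release placed on GRCh37. Here, counts were rounded, 92 spike-in entries at 0 left out, and each set fitted once with limma 3.58.1 (voom, TMM factors from edgeR 4.0.16, R 4.3.3), 1 mean per group, on genes over 1 CPM in 1 or more libraries. P-values were adjusted over all genes tested (Benjamini-Hochberg), with 0.05 as the threshold for passing. The code was tested on simulated data. Alternatives were edgeR, DESeq2 1.42.0, RLE factors, library sizes alone, other filters, only the groups compared, a replicate block and each library left out. The GC index covariate and the comparison of times were added after seeing the data. Named beyond the 10 genes were up to 3 genes per list with the smallest adjusted p and defining markers, neighbours within 250 kb, and the 3 most alike genes by r (pseudocount 0.5 CPM). Of the neighbours, those named were chosen after their values were seen. Members and lists were chosen with earlier results of these data known.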

Additional observations from a re-analysis of the deposited data

Results flagged for a closer look

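In CTCF-AID2 cells with 5-Ph-IAA, ITGAM in replicate 2 lay apart from the other 3 libraries, at 9.09 CPM against 7.76 to 7.95 CPM. Of 20 groups of 4 libraries examined in this way it was the 1 that stood out, and chance alone marks about 1 in 20.

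The effect of auxin differed between CTCF-AID2 and WT cells at 24 h, by the test of the difference itself, for CEBPA (-1.40), ITGAM (1.31), NFE2 (-0.94), ITGAX (0.77), LYZ (-0.63) and FUT4 (-0.24), all as log2 values. For ITGAX, tested only through CTCF-AID2 libraries, this difference did not pass without a filter (0.78, limma adjusted p = 0.0554). The effect differed between CTCF-AID2 cells at 24 h and the mean of the 4 lines at 6 h for ITGAX (2.02), ITGAM (0.88), LYZ (0.57), NFE2 (0.39) and SPI1 (0.27). For SPI1 that difference did not pass with the GC index as a covariate (0.09) or without any 1 of several libraries. For NFE2 it did not pass with that covariate (0.38, limma adjusted p = 0.0529) or without a filter (0.34, limma adjusted p = 0.0736). ITGAX was at -1.08 at 6 h, where it passed the filter only through untreated libraries, and at 0.94 at 24 h. The difference ran from 1.78 to 2.25 over all alternatives and was 1.98 without the filter.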

How the results depend on the processing

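Of the values of the 8 genes under alternatives, 3000 kept their direction and their side of the threshold, 108 no longer passed, 37 newly passed and 1 reversed: ITGAM in untreated CTCF-AID2 against WT cells, -0.03 with the GC index as a covariate. At 24 h in CTCF-AID2 cells and for the mean effect at 6 h no alternative moved the number of genes passing by over 1.5 times. With the GC index, 2 genes passed between untreated lines, 4 in the WT line at 6 h, 4 in DeltaZ1 and 1 in DeltaRBR against the WT line. With only the groups compared, 4 passed in the WT line, 0 in DeltaZ1 and 3 in DeltaZ10, where the fit has fewer samples. DESeq2 passed 1 in DeltaRBR against the WT line. Without a filter 2 passed in DeltaRBR and 3 between times. The cause was not tested for the GC index, DESeq2 and the filter. Leaving out each library gave 2 to 4 in the WT line, 3 to 8 in DeltaZ1, 3 to 7 in DeltaZ10, 2 to 6 in DeltaRBR, 0 to 1 for DeltaZ1 minus WT and 0 to 2 for DeltaZ1 against WT, with both maxima without DeltaZ1 with IAA replicate 1, which leaves the library that stands apart alone in its group. By CPM in place of TPM, the rank of the median over all 16 libraries at 6 h, with and without auxin, became 1 for FUT4, 3 for SPI1, 5 for ITGAM, 6 for CD33 and 7 for NFE2. In the 8 untreated libraries alone the median CPM was 3.87 for NFE2, 3.40 for CD33 and 3.31 for ITGAM. With the replicate number as a block, 8 genes passed at 24 h in CTCF-AID2 cells, 7 in the mean effect at 6 h and 7 in DeltaZ1, where ITGAX was lost (limma adjusted p = 0.0542), and 4 between times. Deviations of same-numbered libraries correlated at -0.222 to 0.157, so the numbers were not taken as pairs. MPO and CSF3R lay under the filter and ITGAX near it.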
